A study of Mus musculus with 12 samples.

Results

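The genes described here are 10 markers of mural cells, the cells that surround blood vessels, measured in the left ventricle of the mouse. They were the rows of the count table whose Ensembl identifiers have these symbols in the GENCODE M21 annotation, and all 10 of 10 were found among 26921 genes. Acta2, Myh11, Tagln and Cnn1 stand for contractile smooth muscle cells, which are 4 of the genes. Rgs5, Pdgfrb, Kcnj8, Abcc9, Notch3 and Cspg4 are the other 6 and stand for pericytes.

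RNA of the left ventricle was sequenced in 12 libraries from mice aged 16 weeks, 6 of the genotype WT and 6 of the genotype cmGch1 KO. All mice carried floxed Gch1 alleles (Gch1 flox/flox), and Gch1 encodes GTP cyclohydrolase 1, the enzyme that starts the synthesis of tetrahydrobiopterin. The cmGch1 KO mice carried in addition 1 copy of a Cre recombinase transgene under the α-myosin heavy chain promoter, which is active in cardiomyocytes and not in mural cells. The WT mice had no Cre, so the loss of Gch1 and the presence of Cre cannot be told apart in these libraries. The study's methods describe both sexes, matched between groups, with a single animal as the experimental unit.

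Smooth muscle cells wrap arteries and arterioles and set vessel calibre through an actin and myosin apparatus that is built under the control of serum response factor. Pericytes sit within the basement membrane of capillaries, are recruited by platelet-derived growth factor from the endothelium and hold a vascular type of ATP-sensitive potassium channel. Acta2 is not restricted to vessels, because developing cardiomyocytes and activated fibroblasts also express it. In RNA from whole tissue, fewer cells of a type and less RNA per cell cannot be told apart.

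Counts per library summed to between 22356463 and 37917806 in WT and between 19921398 and 35480715 in cmGch1 KO, and levels are given as cpm, the counts of a gene scaled to a common library total with the TMM factors of edgeR. Gch1 had a level of 10.7 ± 0.974 cpm in WT (SD, n = 6) and 5.48 ± 0.855 cpm in cmGch1 KO (SD, n = 6), with no overlap between the groups and a log2 fold change of -0.96 (SE 0.113, edgeR quasi-likelihood test, adjusted p = 6.88e-04). cmGch1 KO replicates 2 and 3 stood apart from the other 10 libraries. They had 86.7 and 99.1 cpm of Xist, the RNA of the inactive X chromosome, and 0 counts of 4 Y-linked genes, whereas the other libraries had at most 0.234 cpm of Xist and at least 167 cpm of the Y-linked genes together. Their share of mitochondrial counts was 14.9% and 16.1%, against 18.3% to 22.9% in the others. The labels give no sex. No WT library had this pattern, so sex-linked expression was not balanced between genotypes, although the methods describe matched sexes. The differences of the markers are therefore given with and without cmGch1 KO replicates 2 and 3.

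The Acta2 promoter is shown because Acta2 was the marker that differed between genotypes, the Cnn1 promoter because Cnn1 is a contractile gene that did not pass the test, and the Acta1 promoter because Acta1 is the skeletal actin of fetal heart muscle. Sequences are the 250 bases before the RefSeq start of each gene on GRCm38.p6, read 5′ to 3′ on the strand of the gene, and capitals mark CArG boxes, the binding motif of serum response factor, with at most 1 G or C in the centre. The windows are chr19:34255374-34255623 (minus strand) for Acta2, chr9:22099003-22099252 (plus strand) for Cnn1 and chr8:123894776-123895025 (minus strand) for Acta1.
Acta2: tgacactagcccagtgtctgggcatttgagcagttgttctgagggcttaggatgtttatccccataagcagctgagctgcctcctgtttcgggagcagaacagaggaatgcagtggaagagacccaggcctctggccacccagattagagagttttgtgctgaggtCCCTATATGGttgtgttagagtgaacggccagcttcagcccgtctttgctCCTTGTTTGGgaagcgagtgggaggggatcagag
Cnn1: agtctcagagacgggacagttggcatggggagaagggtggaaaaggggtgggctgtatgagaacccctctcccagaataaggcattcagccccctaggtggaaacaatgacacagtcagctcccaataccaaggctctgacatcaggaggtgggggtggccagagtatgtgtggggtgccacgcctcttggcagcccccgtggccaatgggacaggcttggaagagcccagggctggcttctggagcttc
Acta1: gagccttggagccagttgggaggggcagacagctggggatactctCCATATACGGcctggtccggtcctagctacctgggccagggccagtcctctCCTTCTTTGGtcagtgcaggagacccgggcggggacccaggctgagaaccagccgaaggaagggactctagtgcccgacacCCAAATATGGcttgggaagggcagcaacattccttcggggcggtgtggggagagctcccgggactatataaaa
The motif reads alike on both strands and the matches shown do not overlap. In the full windows of 300 bases, which include 50 bases after the start, the relaxed motif occurred in 9.98% of 32851 mouse promoters and the strict motif, with no G or C in the centre, in 1.63%. Acta2 held 2 relaxed matches and no strict one, and Acta1 held 3, of which 1 was strict. Cnn1 held none, and neither did Rgs5, Kcnj8, Abcc9, Notch3 or Cspg4. Other genes of heart muscle were scored as well. Actc1, with a log2 fold change between genotypes of 0.10, held 4 relaxed matches, of which 1 was strict. Nppa and Ankrd1, with log2 fold changes of 1.53 and 1.13, held none. RefSeq promoters were matched for 7 of the 10 markers, and those of Myh11, Tagln and Pdgfrb were not used here. A match describes letters in the window and is not evidence of binding.

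Of the 10 markers, Acta2 alone passed the test between genotypes and was upregulated in cmGch1 KO hearts compared with WT, to 158% of the WT level. The other 3 contractile genes had lower means in cmGch1 KO without passing the test. The 6 pericyte genes had log2 fold changes between -0.07 and 0.13, and none passed the test. All 10 markers passed the filter on low counts, which was a cpm over 3 in at least 6 libraries, and the fewest counts of any marker in any library were 43, for Cnn1. By edgeR's quasi-likelihood test 1 of 10 markers was called higher and 0 lower at an FDR under 0.05, beside 0.677% of 11225 tested genes called higher and 0.445% called lower. At an unadjusted p under 0.05 the counts were again 1 higher and 0 lower, beside 7.01% higher and 4.51% lower over all tested genes, and the Wald test of DESeq2 also called 1 higher and 0 lower, beside 1.94% of 11222 genes higher and 1.38% lower. Without cmGch1 KO replicates 2 and 3 the log2 fold changes of the pericyte genes were between -0.10 and 0.14, that of Myh11 was -0.24 and that of Tagln -0.58, and Acta2 was again the only marker called.

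Acta2 (ENSMUSG00000035783, GRCm38 chromosome 19, 34241090 to 34255590, minus strand) encodes smooth muscle α-actin, the main actin of the contractile apparatus of vessels. In WT its lowest, median and highest levels were 113, 120 and 144 cpm. In cmGch1 KO they were 162, 189 and 242 cpm. Every cmGch1 KO library therefore lay above every WT library, which was the case in either direction for 1.87% of all tested genes. The means were 126 ± 14.2 in WT and 199 ± 31.9 cpm in cmGch1 KO (SD, n = 6 each), and the log2 fold change was 0.66 (SE 0.107, edgeR quasi-likelihood test, adjusted p = 0.00672).

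The highest Acta2 levels, 242 and 233 cpm, were those of cmGch1 KO replicates 2 and 3, and the other 4 cmGch1 KO libraries had 162 to 195 cpm. Without both replicates the log2 fold change was 0.52 (SE 0.0926, edgeR quasi-likelihood test, adjusted p = 0.0392), and no remaining cmGch1 KO library reached into the WT range. With sex-linked expression as a covariate it was 0.53 (SE 0.0922, adjusted p = 0.0251 by the same test). Transcripts of Acta2 shared exact sequence with those of 5 other actin genes only over short stretches. Of the Acta2 windows of 50 bases, 7 of 2146 occurred in transcripts of Actg1 and 0 in those of Acta1, Actc1, Actg2 or Actb. Of the Acta2 windows of 75 bases, 0 occurred in any of the 5 genes. Only exact matches were counted, so reads aligned with mismatches were not examined.

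**Figure D1:**
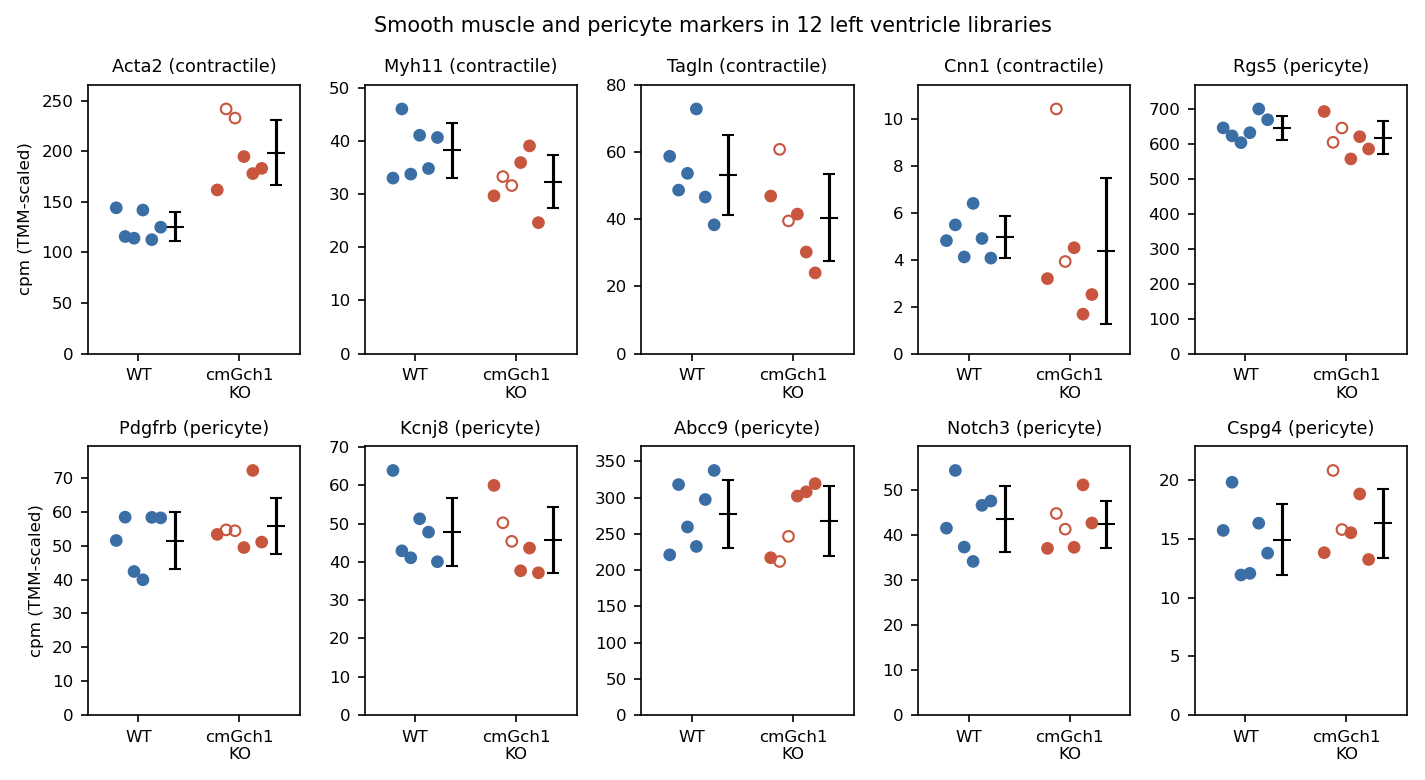
Level of each of the 10 markers in cpm in every WT (blue) and cmGch1 KO (red) library, with the mean ± SD of 6 libraries as black bars; open circles are cmGch1 KO replicates 2 and 3. Acta2 is the only marker whose groups do not overlap, with WT libraries between 113 and 144 cpm and cmGch1 KO libraries between 162 and 242 cpm.

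Myh11 (ENSMUSG00000018830) encodes the smooth muscle myosin heavy chain, the motor that works on Acta2 filaments and the most specific of the contractile markers. Its lowest, median and highest levels were 33.0, 37.7 and 46.0 cpm in WT. They were 24.6, 32.4 and 39.0 cpm in cmGch1 KO. The groups overlapped, with 3 cmGch1 KO libraries outside the WT range and 1 above the WT median. The log2 fold change was -0.24 (SE 0.114, edgeR quasi-likelihood test, unadjusted p = 0.0539, adjusted p = 0.450), in the opposite direction to Acta2.

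Tagln (ENSMUSG00000032085) encodes transgelin, an actin-binding protein of smooth muscle. It had a lowest, median and highest level of 38.3, 51.1 and 72.8 cpm in WT. In cmGch1 KO these were 24.0, 40.5 and 60.7 cpm. The spread within each genotype was wide compared with the difference of means, and the log2 fold change was -0.40 (SE 0.200, edgeR quasi-likelihood test, adjusted p = 0.491). On the opposite strand the exons of Tagln share 1241 bases with the antisense gene Gm48529 and 108 bases with Pcsk7. The deposited counts list no values for Gm48529, and Pcsk7 had 366 to 799 counts per library. The strand setting of the authors' counting is not given in the sources used here.

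Cnn1 (ENSMUSG00000001349) encodes calponin, which binds actin and restrains myosin in smooth muscle, and was the contractile marker with the fewest counts. In WT it had a lowest, median and highest level of 4.06, 4.85 and 6.39 cpm. In cmGch1 KO 5 libraries lay between 1.68 and 4.50 cpm and replicate 2 had 10.4 cpm. The log2 fold change was -0.21 (SE 0.333, edgeR quasi-likelihood test, adjusted p = 0.904). The value rested on single libraries: it was -0.66 without cmGch1 KO replicate 2 (adjusted p = 0.298 by the same test), -0.73 without replicates 2 and 3 (adjusted p = 0.383) and -0.04 without replicate 5 (adjusted p = 0.988), and none of these passed the test.

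Because Acta2 and its contractile partners had opposite signs, their ratio was computed within each library. The ratios were chosen after these values were seen and hold the difference of Acta2 itself, so they are descriptions without a test. Acta2 over Myh11 was 2.52 to 4.37 in WT, with a median of 3.31, and 4.56 to 7.44 in cmGch1 KO, with a median of 6.36. Acta2 over Tagln was 1.95 to 3.26 in WT, with a median of 2.40, and 3.45 to 7.63 in cmGch1 KO, with a median of 5.29. Neither ratio overlapped between genotypes, and the same was true in either direction for 2.29% of all tested genes set over Myh11 and for 1.93% set over Tagln.

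Acta2 over Cnn1 was 21.1 to 30.8 in WT, with a median of 25.4, and 23.2 to 106 in cmGch1 KO, with a median of 55.1. Here the groups overlapped through cmGch1 KO replicate 2, and without replicates 2 and 3 the lowest cmGch1 KO ratio was 43.2. Of all tested genes set over Cnn1, 0.151% did not overlap. The mean differences on the log2 scale were 0.90 over Myh11, 1.08 over Tagln and 1.07 over Cnn1, and without cmGch1 KO replicates 2 and 3 they were 0.77, 1.11 and 1.33.

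**Figure D2:**
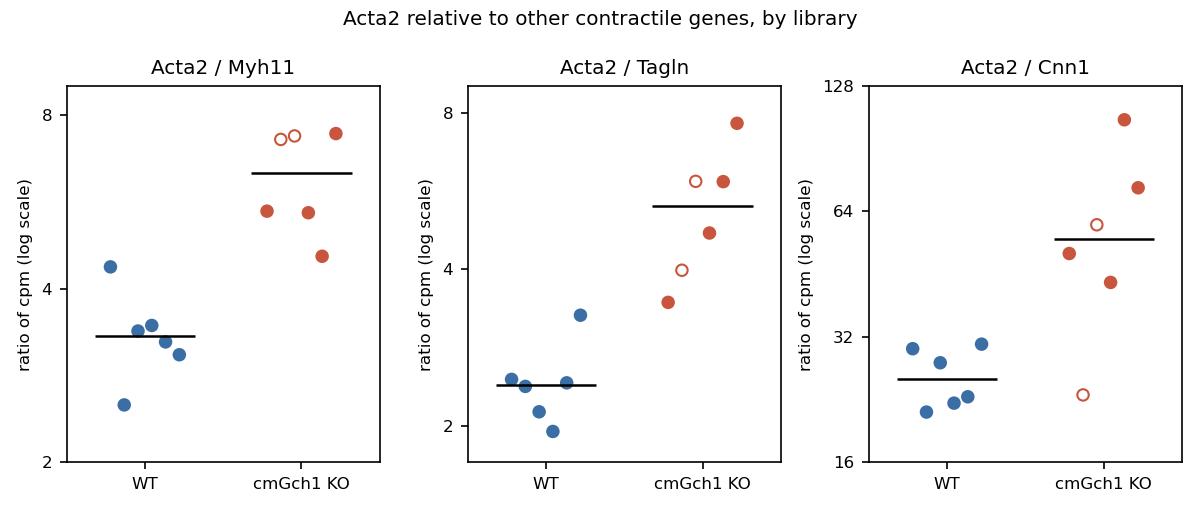
Ratio of Acta2 to Myh11, Tagln and Cnn1 in cpm for each library on a log scale, with the median of each genotype as a line; open circles are cmGch1 KO replicates 2 and 3. The ratios to Myh11 and Tagln of all cmGch1 KO libraries lie above those of all WT libraries, and the ratio to Cnn1 overlaps through replicate 2, at 23.2.

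Rgs5 (ENSMUSG00000026678) encodes a regulator that shortens G protein signalling and is a standard pericyte marker. It was the marker with the most counts per length of transcript. Its lowest, median and highest levels were 603, 638 and 699 in WT and 556, 612 and 692 cpm in cmGch1 KO. The log2 fold change was -0.06 and had the smallest standard error of the 10 markers (SE 0.0663, edgeR quasi-likelihood test, adjusted p = 0.816).

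Pdgfrb (ENSMUSG00000024620) encodes the receptor through which platelet-derived growth factor recruits mural cells. It ranged from 40.0 to 58.4 cpm in WT, with a median of 54.9 cpm. In cmGch1 KO 5 libraries lay between 49.5 and 54.7 cpm and replicate 5 had 72.2 cpm. The groups overlapped and the log2 fold change was 0.12 (SE 0.119, edgeR quasi-likelihood test, adjusted p = 0.809). It was 0.028 without cmGch1 KO replicate 5, 0.054 without WT replicate 4 and 0.067 without WT replicate 3, and it was 0.16 without WT replicate 2, 5 or 6. Cspg4 (ENSMUSG00000032911) encodes the NG2 proteoglycan of the mural cell surface. It had a lowest, median and highest level of 11.9, 14.7 and 19.8 in WT and 13.2, 15.7 and 20.8 cpm in cmGch1 KO. The log2 fold change was 0.13 (SE 0.142, edgeR quasi-likelihood test, adjusted p = 0.837), with cmGch1 KO replicate 2 the highest library. It was 0.038 without that library, 0.041 without replicates 2 and 3 and 0.031 when sex-linked expression was a covariate, and it was 0.22 without WT replicate 2.

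Notch3 (ENSMUSG00000038146) encodes the Notch receptor of mural cells, which receives Jagged1 signals from the endothelium. Its lowest, median and highest levels were 34.1, 44.0 and 54.2 in WT and 37.0, 41.9 and 51.0 cpm in cmGch1 KO. All 6 cmGch1 KO libraries lay within the WT range, and the log2 fold change was -0.04 (SE 0.115, edgeR quasi-likelihood test, adjusted p = 0.951). Its exons share 488 bases with Gm17276 on the opposite strand, which had 6 to 39 counts per library.

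Kcnj8 and Abcc9 encode the pore and the regulatory subunit of the vascular ATP-sensitive potassium channel, Kir6.1 and SUR2. They lie beside each other on the minus strand of GRCm38 chromosome 6, Kcnj8 from 142564837 to 142571614 and Abcc9 from 142587862 to 142702315. Kcnj8 (ENSMUSG00000030247) had a lowest, median and highest level of 40.1, 45.4 and 63.9 in WT and 37.2, 44.5 and 60.0 cpm in cmGch1 KO. Its log2 fold change was -0.07 (SE 0.136, edgeR quasi-likelihood test, adjusted p = 0.927). Abcc9 (ENSMUSG00000030249), whose product also serves the channel of cardiomyocytes, had 221, 278 and 338 in WT and 212, 274 and 319 cpm in cmGch1 KO. Its log2 fold change was -0.05 (SE 0.133, edgeR quasi-likelihood test, adjusted p = 0.944), and the ranges of both genes overlapped almost completely between genotypes. Kcnj11 and Abcc8, which encode the subunits Kir6.2 and SUR1, had log2 fold changes of -0.17 and 0.20 (edgeR quasi-likelihood test, adjusted p = 0.339 and 0.460). The exons of Abcc9 share 158 bases with the antisense gene 5330439B14Rik, for which the deposited counts list no values.

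Scaling by library size alone moved the median log2 fold change of all tested genes from -0.01 to 0.07, and those of Rgs5, Kcnj8, Abcc9 and Notch3, which moved with it, were then between 0.0047 and 0.034. No direction is read from values of this size. The median log2 fold change was -0.22 over the contractile genes and -0.05 over the pericyte genes, beside -0.01 over all tested genes, and these medians are descriptions of lists whose members were chosen with earlier results known.

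Per kilobase of merged exons, the markers had the same order in both genotypes. Rgs5 was highest with 142 ± 7.59 cpm per kb in WT and 136 ± 10.5 in cmGch1 KO (SD, n = 6 each), followed by Acta2 with 57.2 ± 6.46 and 90.5 ± 14.5. Abcc9 followed with 33.2 ± 5.64 and 31.95 ± 5.75 cpm per kb, Tagln with 26.7 ± 5.95 and 20.3 ± 6.48 and Kcnj8 with 18.8 ± 3.51 and 17.9 ± 3.36. The lower levels were those of Pdgfrb, Notch3, Myh11, Cnn1 and Cspg4, which had at most 10.7 cpm per kb in any WT library, with Cspg4 lowest at 1.25 ± 0.252 (SD, n = 6). In WT the ranges of neighbours in this order overlapped between Abcc9 and Tagln, Tagln and Kcnj8, Notch3 and Myh11, and Cnn1 and Cspg4, and in cmGch1 KO also between Myh11 and Cnn1. Rgs5, Acta2 and Abcc9 did not overlap with one another in either genotype, so Acta2 was second in both although its level per kb was higher in cmGch1 KO.

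Since Acta2 is also a gene of the fetal cardiac programme, the other genes of that programme are set beside it. All 6 had positive log2 fold changes, and 2 of 6 were called higher, beside 0.677% of all tested genes, with a median of 0.93. This list, like the lists below, was chosen with earlier results of these data known, so such shares are descriptions only. Ankrd1, a stretch-responsive repressor of cardiomyocytes, had 911 to 1571 in WT and 2087 to 3112 cpm in cmGch1 KO (log2 fold change 1.13, SE 0.139, edgeR quasi-likelihood test, adjusted p = 9.80e-04). Its groups did not overlap, as for 1.87% of all tested genes in either direction. Nppa, which encodes atrial natriuretic peptide, had 66.7 to 263 in WT and 201 to 678 cpm in cmGch1 KO (log2 fold change 1.53, SE 0.304, edgeR quasi-likelihood test, adjusted p = 0.0240). The call of Nppa was lost without cmGch1 KO replicates 2 and 3 (1.31, edgeR quasi-likelihood test, adjusted p = 0.152). It was also lost, with adjusted p values up to 0.0691, when WT replicate 2, 3 or 5 or cmGch1 KO replicate 2, 3 or 4 was left out. With sex-linked expression as a covariate it was lost too (1.34, adjusted p = 0.113).

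Acta1, the skeletal α-actin that the heart re-expresses under load, had 204 to 313 in WT and 251 to 677 cpm in cmGch1 KO. Its log2 fold change of 0.78 did not pass the test (SE 0.213, edgeR quasi-likelihood test, adjusted p = 0.118), and the highest library was cmGch1 KO replicate 2. Without cmGch1 KO replicates 2 and 3 the value was 0.72 (adjusted p = 0.310), and without replicate 6 it was 0.91 and passed (adjusted p = 0.0293, edgeR quasi-likelihood test). Within genotypes Acta2 and Acta1 had an r of 0.19 (n = 12, permutation test, adjusted p = 0.547 over 4 pairs, rho = 0.09, adjusted p = 0.785), and 0.10 without the 2 farthest libraries. DESeq2 called 4 of the 6 genes higher, Acta1 and Nppb as well as Ankrd1 and Nppa, beside 1.94% of all genes. Actc1, the cardiac α-actin, had a log2 fold change of 0.10 (adjusted p = 0.724 by the same test), Nppb, which encodes brain natriuretic peptide, one of 1.07 (adjusted p = 0.0701) and Myh7, the slow myosin heavy chain, one of 0.13 (adjusted p = 0.815). Actg2, the enteric smooth muscle actin, did not pass the filter and had 0.981 ± 0.496 in WT and 0.853 ± 0.586 cpm in cmGch1 KO (SD, n = 6 each).

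**Figure D3:**
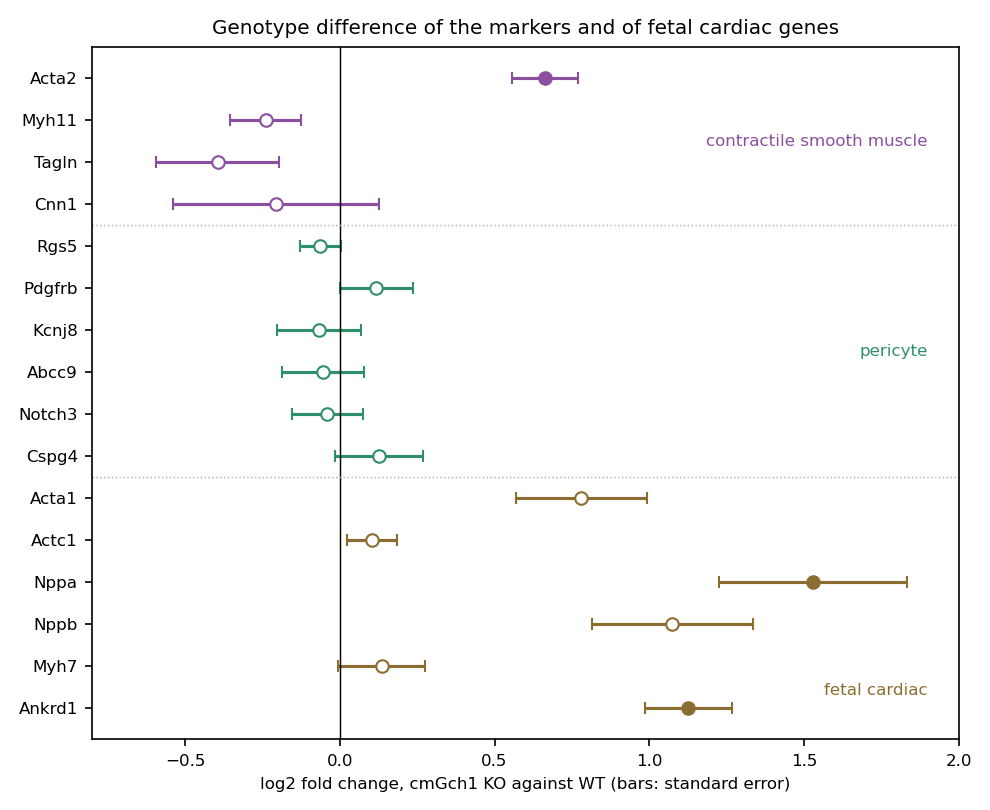
Difference between genotypes as a log2 fold change with its standard error for the contractile and pericyte markers and for 6 fetal cardiac genes; filled points passed the test at an FDR under 0.05. Acta2 lies at 0.66, with Myh11, Tagln and Cnn1 between -0.40 and -0.21. The 6 fetal cardiac genes have positive values. Of these, Actc1 at 0.10 and Myh7 at 0.13 are close to the pericyte genes, which lie between -0.07 and 0.13.

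Other genes of smooth muscle and pericytes gave few differences. Of 13 further contractile genes 11 were tested and 0 were called by edgeR or DESeq2, with 1 lower at an unadjusted p under 0.05, beside 4.51% of all tested genes, and a median log2 fold change of -0.09. The smallest p belonged to Lmod1, a nucleator of actin filaments (log2 fold change -0.44, edgeR quasi-likelihood test, adjusted p = 0.263), followed by Itga8, an integrin chain (-0.27, adjusted p = 0.530). Of 12 regulators, among them Srf and its coactivator Myocd, 0 were called by edgeR or DESeq2 and 0 had an unadjusted p under 0.05, with a median of -0.04. The smallest p values were those of Hey1, a target of Notch (-0.28, adjusted p = 0.504 by edgeR), and Foxs1, a mural cell transcription factor (0.51, adjusted p = 0.536).

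Of 15 further pericyte genes 0 were called by edgeR or DESeq2. At an unadjusted p under 0.05, 1 was lower, beside 4.51% of all tested genes, and the median log2 fold change was -0.01. Higd1b, a pericyte marker, had a log2 fold change of -0.43 (edgeR quasi-likelihood test, adjusted p = 0.324) and Ednra, an endothelin receptor, one of 0.26 (adjusted p = 0.483). Of 11 signals that recruit mural cells, 0 were called by edgeR and 1 was called lower by DESeq2, beside 1.38% of all genes. Another 4.51% share of all tested genes stands beside the 2 signals lower at an unadjusted p under 0.05. The median of the signals was -0.10. The gene called by DESeq2 was Pdgfd, a ligand of the receptor encoded by Pdgfrb. It had 15.6 to 19.3 in WT and 11.8 to 15.4 cpm in cmGch1 KO. The groups did not overlap, as for 1.87% of all tested genes in either direction. Its log2 fold change was -0.35 (SE 0.0812, edgeR quasi-likelihood test, adjusted p = 0.0638). The receptor itself differed by less than its spread, as given above. Dll4, a Notch ligand of the endothelium, had a log2 fold change of -0.18 (adjusted p = 0.324).

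Markers of other cells in the samples were examined because Acta2 is not specific to mural cells. Of 10 fibroblast genes 0 were called by edgeR and 1 was called higher by DESeq2, beside 1.94% of all genes. At an unadjusted p under 0.05, 3 were higher, beside 7.01% of all tested genes, and the median log2 fold change was 0.15. All 10 were positive. Their summed level was 1756 to 2422 in WT and 2023 to 2641 cpm in cmGch1 KO. Col3a1 led with a log2 fold change of 0.44 (edgeR adjusted p = 0.126), or 0.29 without cmGch1 KO replicates 2 and 3, before Postn, a gene of activated fibroblasts, with 0.40 (adjusted p = 0.192). Of 8 macrophage genes 0 were called by either tool, with 6 higher at an unadjusted p under 0.05, beside the same 7.01%, and a median of 0.27, and 7 of 8 were positive. Their summed level was 238 to 369 in WT and 307 to 432 cpm in cmGch1 KO. Adgre1 had 0.38 (edgeR adjusted p = 0.193) and Csf1r 0.21 (adjusted p = 0.248).

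All 10 cardiomyocyte genes had negative log2 fold changes, with a median of -0.17, and 0 were called by either tool or had an unadjusted p under 0.05. Their sum was 67756 to 74947 in WT and 60419 to 69999 cpm in cmGch1 KO. Among cmGch1 KO libraries it was lowest in replicates 2, 1 and 3, at 60419, 60568 and 63748 cpm, of which replicates 2 and 3 had the highest Acta2 and replicate 1 the lowest. Among WT libraries the sum was lowest in replicate 1, at 67756 cpm, which had the highest WT level of Acta2, 144 cpm. WT replicate 4, with 142 cpm of Acta2, had a sum of 74680 cpm. Actn2 had -0.16 (edgeR adjusted p = 0.437) and Tnnt2 -0.11 (adjusted p = 0.590). Of 9 endothelial genes 0 were called by either tool or had an unadjusted p under 0.05, the median was 0.04 and the sum was 857 to 1093 in WT and 913 to 1102 cpm in cmGch1 KO. Cldn5 and Emcn, which had the smallest p, had log2 fold changes of 0.19 and 0.14 (edgeR adjusted p = 0.651 and 0.685).

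The artery wall genes Eln, Fbln5, Mfap4, Mfap5, Fbn1 and Lox had positive log2 fold changes between 0.02 and 0.34. Of these 6, 0 were called by either tool and 1 was higher at an unadjusted p under 0.05, beside 7.01% of all tested genes. They summed to 115 to 142 in WT and 124 to 184 cpm in cmGch1 KO. The atrial genes Sln, Myl7 and Myl4 summed with Bmp10 to 7.62 to 284 in WT and 45.1 to 187 cpm in cmGch1 KO, and 0 of the 3 tested were called by either tool. The adipocyte genes Adipoq, Plin1, Cidec, Cfd and Ucp1 did not pass the filter, and Ucp1 was the marker nearest to 0, with at most 0.0290 cpm. The part of fibroblasts, macrophages and cardiomyocytes in the difference of Acta2 was not tested.

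Variation between libraries of the same genotype was compared over all 45 pairs of markers, a set chosen after the data were seen, which holds 3 of the 4 pairs chosen earlier and not that of Acta2 and Acta1, using log2 cpm with the mean of each genotype removed (n = 12 libraries, permutation tests, adjusted over the 45 pairs). Among contractile genes, Tagln and Cnn1 were positively correlated (r = 0.77, adjusted p = 0.0346, rho = 0.71, adjusted p = 0.0852, and r = 0.61 without the 2 libraries farthest from the median). Among pericyte genes, Pdgfrb and Notch3 varied together (r = 0.90, adjusted p = 0.00180, rho = 0.90, adjusted p = 0.00360, and r = 0.83 without the 2 farthest), as did Notch3 and Cspg4 (r = 0.77, adjusted p = 0.0346, rho = 0.76, adjusted p = 0.0501, and r = 0.63 without the 2 farthest). These 3 pairs had positive r within WT and within cmGch1 KO, the lowest being 0.64 for Notch3 and Cspg4 in cmGch1 KO.

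Kcnj8 and Abcc9, which encode partner subunits, varied in opposite directions (r = -0.83, adjusted p = 0.0123, rho = -0.85, adjusted p = 0.0139, and r = -0.78 without the 2 farthest), and so did Tagln and Abcc9 (r = -0.85, adjusted p = 0.00382, rho = -0.90, adjusted p = 0.00360, and r = -0.83 without the 2 farthest). The r of Kcnj8 and Abcc9 was -0.78 within WT and -0.88 within cmGch1 KO. Acta2 varied with no other marker past the threshold: its r was 0.64 with Cnn1 (adjusted p = 0.104, rho = 0.51, adjusted p = 0.348, and r = 0.44 without the 2 farthest, which were cmGch1 KO replicates 2 and 3), 0.50 with Tagln (adjusted p = 0.332) and 0.07 with Myh11 (adjusted p = 0.892).

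Part of this variation, in 3 of the 10 markers, followed a trend of each library with transcript length. For each library the deviations of 11195 tested genes from their means were regressed on the log2 length of their merged exons, and the slope was -0.109 to 0.088 in WT and -0.134 to 0.076 in cmGch1 KO, with means that differed by less than the spread (exact permutation test, two-sided, p = 0.933). Abcc9, whose merged exons span 8.37 kb, followed this slope closely (r = 0.96, adjusted p = 1.0e-04, rho = 0.86, adjusted p = 0.00550, and r = 0.96 without the 2 farthest, permutation tests over 12 libraries adjusted over the 10 markers). The adjusted p of its r is the smallest that 100000 permutations can give. Kcnj8, of 2.55 kb, went against it (r = -0.83, adjusted p = 0.00480, rho = -0.78, adjusted p = 0.0194, and r = -0.66 without the 2 farthest), and so did Tagln, of 1.99 kb (r = -0.75, adjusted p = 0.0162, rho = -0.71, adjusted p = 0.0386, and r = -0.79 without the 2 farthest). The r of the other markers did not pass the threshold. Among them were the longest, Cspg4, of 11.9 kb (r = 0.29), and Myh11, of 7.60 kb (r = 0.34, permutation tests, adjusted p = 0.387 for both). Over all tested genes, 27.3% had an r with this slope above 0.8 in size, so such a relation was common. Acta2 had an r of -0.31 with the slope (permutation test, adjusted p = 0.387, rho = -0.13), and -0.67 without the 2 farthest libraries. The r of Acta2 was -0.72 within WT and -0.01 within cmGch1 KO.

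**Figure D4:**
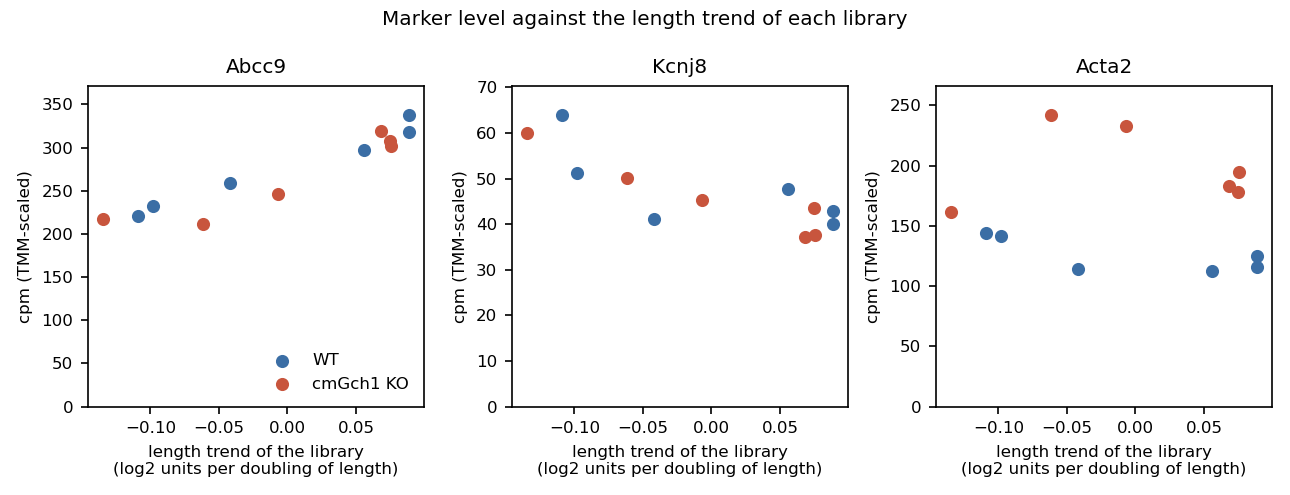
Level in cpm of Abcc9, Kcnj8 and Acta2 in each library against the slope of that library's deviations on log2 transcript length, with WT in blue and cmGch1 KO in red. Abcc9 is higher and Kcnj8 lower at high slopes in both genotypes (r = 0.96 and -0.83), while the cmGch1 KO libraries of Acta2 lie above the WT libraries at low and high slopes.

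With the length trend removed from each marker, the r of Kcnj8 and Abcc9 was -0.24 (permutation test, adjusted p = 0.703 over the 45 pairs, n = 12). The pair Pdgfrb and Kcnj8, with an r of -0.03 before, then had an r of 0.85 (permutation test, adjusted p = 0.00630). Pdgfrb and Notch3 had 0.86 (adjusted p = 0.00630), Notch3 and Cspg4 0.81 (adjusted p = 0.0179) and Tagln and Cnn1 0.82 (adjusted p = 0.0178, permutation tests). Abcc9 had negative r with Tagln (-0.73, adjusted p = 0.0424), Cnn1 (-0.75, adjusted p = 0.0374) and Cspg4 (-0.75, adjusted p = 0.0374, permutation tests). Before removal the r of Abcc9 and Cspg4 was 0.08. Abcc9 had an r of 0.96 with the slope, so little of its variation was left. The permutations took no account of the removed means and trend, so these p values may be too small. Removal of the trend was chosen after the data were seen. With the trend as a covariate in the comparison of genotypes, the log2 fold change of Acta2 was 0.67 (SE 0.0981, edgeR quasi-likelihood test, adjusted p = 0.00214).

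**Figure D5:**
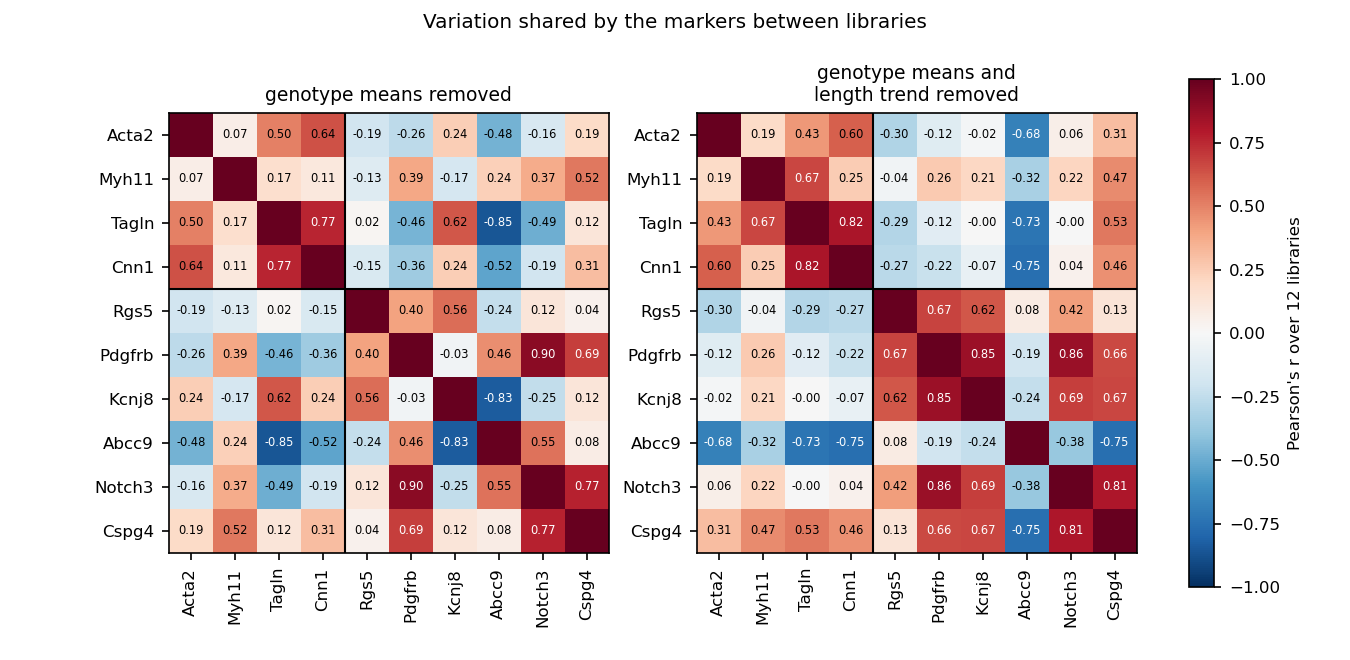
Pearson's r between the log2 cpm of every pair of markers over 12 libraries, with genotype means removed (left) and with the length trend removed as well (right); black lines separate contractile from pericyte genes. Kcnj8 and Abcc9 change from -0.83 to -0.24, Pdgfrb and Kcnj8 from -0.03 to 0.85, and Pdgfrb and Notch3 stay at 0.90 and 0.86.

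The tested genes whose pattern over the 12 libraries was most like that of Acta2, with genotype means removed, were Nr0b2 (r = 0.93, rho = 0.81), Usp39 (r = 0.91, rho = 0.88) and Acbd6 (r = 0.91, rho = 0.84). Those most like Rgs5 were Cdk20 (r = 0.89, rho = 0.93), Bbs9 (r = 0.87, rho = 0.82) and Sept2 (r = 0.86, rho = 0.83). They were picked as the highest of all tested genes and are given without a test, and none of the 6 was called between genotypes, their adjusted p lying between 0.191 and 0.981 by edgeR's quasi-likelihood test.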

How the data were processed

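Total RNA from the left ventricle of 6 WT and 6 cmGch1 KO mice had been made into stranded (dUTP) libraries and sequenced as pairs. Per the study's methods the authors aligned with HISAT2, used Picard and counted reads with featureCounts, and the submitters' processing notes name HISAT2, SAMtools and GRCm38. The strand setting and the annotation of the counting are not given in the sources used here. The authors deposited raw counts per Ensembl gene, and a second table of normalized values on a log2-like scale, used for 1 alternative only. Symbols, positions and merged exon lengths came from GENCODE M21, and promoters from RefSeq.

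Counts were tested in R 4.3.3 with edgeR 4.0.16 (TMM, cpm over 3 in at least 6 libraries, quasi-likelihood test on genotype, Benjamini-Hochberg FDR 0.05), on all 11225 genes that passed. The cpm minimum, the FDR and the use of edgeR follow the study's methods, and the edgeR test and number of libraries were chosen here. Log2 cpm had a prior count of 2. Groups and replicate numbers came from the labels. The 30 pairs of libraries of 1 genotype had a chi-square per degree of freedom of 12.5 to 78.9, so none was a repeat. The limit that 0 counts allow was 0.0827 to 0.139 cpm over the libraries, for counting error only. The script was tested on simulated data.

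The members and gene lists were chosen with earlier results of these data known. Beside the 10 markers, the named genes are Gch1, Xist and 4 Y-linked genes, actin paralogs of Acta2, genes of each other list that passed the test or else those with the smallest p, lists of under 7 genes whole, and the 3 genes most like Acta2 and Rgs5. Correlations used 100000 permutations. Alternatives were DESeq2 1.42.0 size factors and Wald test, library size alone, other filters, a replicate block, covariates, limma 3.58.1 on the deposited log2 values, and leaving out libraries.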

Additional observations from a re-analysis of the deposited data

Results flagged for a closer look

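Among the 70 groups of 6 libraries examined for a library far from the others, 5 stood out, where chance alone would give about 5% of groups. cmGch1 KO replicate 2 had 10.4 cpm of Cnn1, above the 1.68 to 4.50 cpm of the other 5 cmGch1 KO libraries. cmGch1 KO replicate 5 had 72.2 cpm of Pdgfrb, above 49.5 to 54.7 cpm in the others of its genotype. cmGch1 KO replicate 6 had 7.78 cpm of Higd1b, above 5.07 to 6.06 cpm. Emcn, an endothelial gene, was high in WT replicate 1, with 39.6 cpm against 30.8 to 34.0 cpm, and in cmGch1 KO replicate 1, with 49.0 cpm against 33.5 to 35.7 cpm. What sets these libraries apart was not tested.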

How the results depend on the processing

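Acta2 was called higher, and no other marker was called, under each of the 23 alternatives, with a log2 fold change of Acta2 between 0.52 (without cmGch1 KO replicates 2 and 3) and 0.75 (library size alone) and adjusted p values between 2.35e-06 and 0.0392. The differences of Acta2 over Myh11, Tagln and Cnn1 also kept their direction without cmGch1 KO replicates 2 and 3 and when each library was left out in turn. These ratios hold the difference of Acta2 itself and were chosen after it was seen, so they add no separate support.

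Of the genes of the other lists, 0 were called lower and 2 higher. By the DESeq2 Wald test 1 was lower and 5 were higher, with the length trend as a covariate 1 was lower and 7 were higher, with length trend and sex-linked expression as covariates 4 were higher, with sex-linked expression as a covariate 1 was higher and without cmGch1 KO replicates 2 and 3 also 1. Leaving out single libraries gave 0 to 1 lower and 1 to 3 higher. The gene lost was Nppa, without WT replicate 2, 3 or 5 or cmGch1 KO replicate 2, 3 or 4. Over all tested genes 50 were lower and 76 higher in the main test, 155 and 218 by DESeq2, 299 and 283 with the length trend, 24 and 40 with sex-linked expression, and 18 and 20 without cmGch1 KO replicates 2 and 3. Single libraries left out gave 31 to 98 lower and 43 to 118 higher, and library size alone gave 36 lower and 116 higher.

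Some markers that were never called had another sign. Library size alone moves all genes alike, the median from -0.01 to 0.07, and with this shift the log2 fold changes were 0.010 for Rgs5, 0.0047 for Kcnj8, 0.018 for Abcc9 and 0.034 for Notch3. Abcc9 was 0.032 with sex-linked expression as a covariate and 0.050 without cmGch1 KO replicates 2 and 3. With single libraries left out Kcnj8 ranged from -0.16 to 0.032, Abcc9 from -0.12 to 0.0095 and Notch3 from -0.10 to 0.032. Without removal of genotype means, r was -0.23 for Acta2 and Tagln, and 0.65 for Acta2 and Acta1, which then passed the threshold, against 0.19 with the means removed. The uncentred values hold the difference between genotypes. With the length trend removed it was -0.24 for Kcnj8 and Abcc9, which no longer passed. Other causes were not tested.

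With the replicate number as a block, Acta2 had a log2 fold change of 0.65 (edgeR quasi-likelihood test, adjusted p = 0.0235) and no other marker was called, while 76 genes were lower and 112 higher. Libraries sharing a number had positively correlated deviations for numbers 1, 5 and 6 (r = 0.68, 0.40 and 0.51). For numbers 2, 3 and 4 the r was -0.09, -0.08 and -0.13, and not every library was most like its own number. The labels name no pairs, and the main test took the numbers as none. Why some numbers matched was not tested.

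The 6 libraries in each group and counts as low as 43 for Cnn1 limit what could be seen, and the difference of Cnn1 rests on single libraries.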
